A study of Mus musculus with 10 samples.

Results

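The genes described here are 5 interferon-stimulated genes, Ifit3, Ifit3b, Oasl2, Ifitm3 and Xaf1, measured in the hypothalamus of mice of 2 ages. The Young group held 5 samples from male C57BL/6J mice aged 24 weeks, and the Old group held 5 from male C57BL/6J mice aged 138 weeks. C57BL/6J is an inbred laboratory strain; no transgene, deletion or drug is named in the labels for either group, and all mice had free access to feed and water. Biotin-labelled cDNA from each sample was hybridised to a Clariom S Mouse array, which reads 1 colour and was summarised to 1 value for each set of probes. Nothing in the labels ties each sample to its own animal, so a p-value sets a difference against the spread of these samples only, and that spread may be technical.

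All 5 genes were found, of 19505 measured genes, each with 1 probe set. They were chosen by the very contrast described here: their signals in Old and Young on these 10 arrays, where they were higher in Old. Their age differences are therefore a description, with no test. A gene was treated as varying where its population SD over the 10 arrays was at least 0.01 log2, which holds for 276 of the 19505 genes (1.42%). That SD spans both ages, so an age difference can itself bring a gene past the limit. Of the 5 genes, 4 varied; Xaf1, with an SD of 0.0040, did not and is given as a level only. Just inside that limit lay Rspo3 (SD 0.0107) and Zim1 (0.0140), and just outside it Ldhb (0.00945) and Zfp827 (0.0094). Most other genes were deposited with a spread so small that a difference between ages could not be sized: 97.9% of all probe sets had an SD of 1e-05, within 1%.

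Type I and type II interferons are secreted proteins that bind receptors on the cell surface, activate JAK kinases and STAT transcription factors, and so raise the transcription of a large set of interferon-stimulated genes. Many of these genes carry in their promoters an interferon-stimulated response element, a pair of GAAA half-sites that interferon regulatory factors bind. In the brain, microglia, astrocytes, endothelial cells and neurons can all respond to interferon. Ifit3 and Ifit3b encode tetratricopeptide-repeat proteins of the IFIT family, whose relatives bind foreign RNA. Oasl2 encodes an oligoadenylate synthetase-like protein, Ifitm3 a membrane protein that blocks the fusion of viruses with endosomes, and Xaf1 an antagonist of the apoptosis inhibitor XIAP.

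The promoters are shown first because the similarity of Ifit3 and Ifit3b bears on how their signals can be read. The starts used here, 1 for each member from RefSeq (GRCm38.p6) with no transcript named, lie 24428 bases apart for Ifit3 and Ifit3b, both on the plus strand of chromosome 19. RefSeq's loci of Ifit3, Ifit3b and Xaf1 begin further upstream than these starts, so the bases shown before the start of these 3 genes lie inside the locus. The windows shown are the 250 bases before those starts, chr19:34583279-34583528 for Ifit3 and chr19:34607707-34607956 for Ifit3b, 5′ to 3′, with matches to the letters of the response element in capitals.
Ifit3: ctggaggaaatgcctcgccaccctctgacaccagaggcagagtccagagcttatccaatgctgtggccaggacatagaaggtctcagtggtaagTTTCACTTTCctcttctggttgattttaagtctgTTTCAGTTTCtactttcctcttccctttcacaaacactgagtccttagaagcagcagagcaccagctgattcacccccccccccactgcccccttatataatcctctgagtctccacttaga
Ifit3b: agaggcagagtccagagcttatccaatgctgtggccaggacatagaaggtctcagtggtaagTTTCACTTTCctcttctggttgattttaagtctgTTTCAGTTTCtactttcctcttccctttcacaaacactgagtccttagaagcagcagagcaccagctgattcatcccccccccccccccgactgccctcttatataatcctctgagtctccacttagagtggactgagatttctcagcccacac

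The capitals mark GAAANNGAAA, searched on both strands and here present as its reverse complement TTTCNNTTTC, 2 times in each promoter. Over the 300-base windows around the starts (250 before and 50 from the start on), the 2 promoters could be aligned over 260 bases, of which 258 were identical (99.2%), with 14 bases in gaps. The transcripts were not compared here. The genes belong to 1 family and their promoters are near copies, so the 2 genes are not treated as independent measurements; whether either probe set takes signal from the other transcript was not tested.

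Ifitm3 held GAAANNGAAA 2 times as written, close behind its start on the minus strand of chromosome 7, at chr7:141010716-141010742. This short run is shown because it holds both copies.
Ifitm3: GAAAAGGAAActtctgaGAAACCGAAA

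Xaf1 had no GAAANNGAAA in its window on the plus strand of chromosome 11. It held the shorter form AANNGAAA, which is contained in GAAANNGAAA, 2 times, once on each strand. The 60 bases before its start, chr11:72301569-72301628, are shown with the copy that lies there, in reverse complement, in capitals.
Xaf1: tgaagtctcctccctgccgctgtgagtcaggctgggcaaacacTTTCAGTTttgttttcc

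Oasl2 held neither form in its window on chromosome 5. Of all 32851 RefSeq promoter windows of the same length, 3.44% held GAAANNGAAA and 23.9% held AANNGAAA. Among measured genes with a window, 618 of 15691 (3.94%) held the longer form, and among varying genes 15 of 215 (6.98%). A match describes the letters of the window, and a window without one says only that the letters are not in these 300 bases.

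All values below are deposited signals read as log2, and a difference is the mean of Old minus the mean of Young in log2 units. For each of the 5 genes every Old array lay above every Young array. Over all genes the groups were separated in this direction in 0.836%, over varying genes in 20.7% and over genes that did not vary in 0.551%; since the 5 genes were chosen for this contrast, nothing is read from their count.

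Ifit3 had 7.31, 7.41, 7.07, 7.20 and 7.27 log2 in Young 1 to Young 5. In Old 1 to Old 5 it had 8.13, 8.63, 8.30, 8.29 and 8.52. The lowest Old array lay 0.73 above the highest Young array, so the ages were far apart compared with the range inside either. The means were 7.25 ± 0.13 and 8.37 ± 0.20 (SD, n = 5), and Old was higher by 1.12 (SE 0.10), which is 2.18-fold. This was the difference of rank 2 among all 19505 genes.

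Ifit3b, the close paralogue of Ifit3, had 7.20, 7.21, 7.01, 7.17 and 7.20 log2 in Young 1 to Young 5. It had 8.08, 8.24, 8.13, 8.17 and 8.37 in Old 1 to Old 5. The Young arrays other than Young 3 lay close together, and the gap between the ages was 0.87, wider than for Ifit3. The means were 7.16 ± 0.083 and 8.20 ± 0.11 (SD, n = 5), and Old was higher by 1.04 (SE 0.059), which is 2.06-fold and of rank 3.

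Oasl2 differed less. It had 6.72, 6.41, 6.57, 6.57 and 6.75 log2 in Young 1 to Young 5, and 6.92, 7.19, 6.99, 7.02 and 6.999 in Old 1 to Old 5. The Young arrays were the more spread, and the ages were 0.17 apart at their nearest, between Young 5 and Old 1. The means were 6.60 ± 0.14 and 7.02 ± 0.098 (SD, n = 5), and Old was higher by 0.42 (SE 0.070), which is 1.34-fold and of rank 25.

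Ifitm3 came closest to overlap. It had 6.76, 6.82, 6.84, 6.67 and 6.99 log2 in Young 1 to Young 5, and 7.06, 7.25, 7.09, 7.13 and 7.001 in Old 1 to Old 5. Young 5 and Old 5 were only 0.013 apart, and every other Young array lay below every Old array by more than that. The means were 6.81 ± 0.12 and 7.11 ± 0.093 (SD, n = 5), and Old was higher by 0.30 (SE 0.063), which is 1.23-fold and of rank 37. Without Young 5 the difference was 0.34.

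Xaf1 lay between 6.751 and 6.755 log2 on the Young arrays, with a median of 6.753, and between 6.759 and 6.762 on the Old arrays, with a median of 6.761. The groups did not overlap, but the whole span is far below the range within either age for the other 4 genes, and no size of change is drawn from it.

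**Figure D1:**
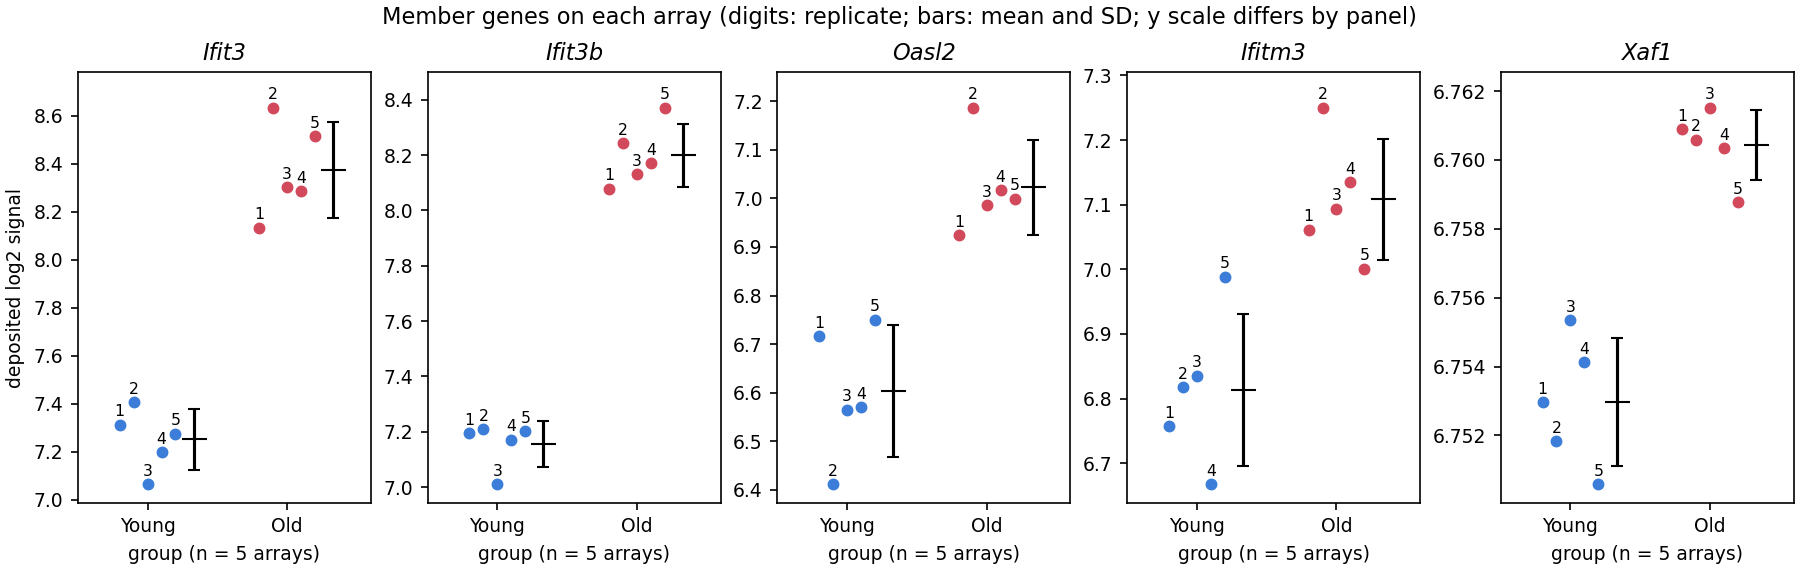
Deposited log2 signal (y axis, its own scale in each panel) of the 5 genes in 5 Young and 5 Old arrays; each point is an array with its replicate digit, and the bar beside it is the group mean and SD. The gap between the groups is widest for Ifit3b (0.87) and Ifit3 (0.73) and narrowest, among the varying genes, for Ifitm3 (0.013).

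Some arrays stood apart for transcripts of other tissues. On Young 5 the signal of Ttr, which encodes transthyretin and is abundant in choroid plexus, was 12.44 log2, where the other arrays had 6.90 to 7.97. On Young 3, Mup2 (7.35) and Alb (6.87), both abundant in liver, were above every other array. Among the Young arrays, Young 5 was highest for Oasl2 and Ifitm3, and Young 3 was lowest for Ifit3 and Ifit3b. With both arrays left out, the differences were 1.07 for Ifit3, 1.01 for Ifit3b, 0.46 for Oasl2 and 0.36 for Ifitm3. As markers of the labelled tissue, Pmch and Hcrt, whose neurons lie in the lateral hypothalamus, had mean signals of 10.4 and 9.03 log2, and the vasopressin gene Avp 9.37. Not all listed peptide genes were bright. Their mean signals ran from 6.23 (Gnrh1) and 6.32 (Pomc) to 10.6 (Sst), where the array medians were 6.78. Of 12 hypothalamic peptide genes 6 varied, and 2 of them passed with limma over the varying genes. Avp was higher in Old by 0.62 (SE 0.13; adjusted p = 0.00353), more than Oasl2 or Ifitm3, with all Old arrays above all Young arrays. The somatostatin gene Sst was at -0.16 (SE 0.045; adjusted p = 0.0272). Over all genes their limma adjusted p was 0.182 and 0.465. The part of these transcripts in the members' differences was not tested.

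The other genes of the interferon pathway were taken by role. Of 144 measured genes besides the 5, 5 varied and 139 did not, where 1.42% of all genes varied. Old was compared with Young with limma over all 19505 genes (Benjamini-Hochberg adjusted p under 0.05), where 0.19% of genes rose and 0.0308% fell. In this fit 3 of the 144 rose and 0 fell, while 13 had an unadjusted limma p under 0.05, as did 6.82% of all genes. All 3 were antigen-processing genes, B2m, H2-D1 and H2-K1. The list was drawn up with earlier results of these data known, so these counts are a description and not independent support for a rise of the pathway. The fit to the 276 varying genes alone, where 24.6% rose and 11.2% fell, called all 5 varying genes of the list higher. An age difference can itself bring a gene into this fit, so its calls are not independent of the contrast. The median difference was -1.4e-06 log2 for the 144 genes and -8.7e-08 for all genes, because nearly all of both are genes without a measurable spread.

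Upstream of the members, no gene varied. This held for 10 interferon ligands, among them Ifnb1 (6.10 log2) and Ifng (5.89), for 6 receptor chains, among them Ifnar1 (7.47) and Ifnar2 (7.97), and for 6 signalling genes, among them Stat2 (7.24) and Irf9 (7.10). It held too for 15 sensors and adaptors of foreign nucleic acid, for 7 interferon regulatory factors, with Irf7 at 5.82, and for 8 inhibitors, with Usp18 at 6.14 and Socs1 at 6.18. Over all genes 1.42% varied, and these deposited values give a level and cannot show whether age changed them. In none of these 52 genes were the groups separated in either direction. Over the 139 genes of the pathway that did not vary, the groups were separated in 1, the proteasome activator gene Psme1, which was lower; over all genes that did not vary the shares were 0.551% higher and 0.442% lower.

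In the members' own families the members were the only genes that varied. Of the IFIT family, Ifit1 (6.45 log2), Ifit2 (6.58), Ifit1bl1 (6.35) and Ifit1bl2 (5.88) did not. All 4 lie in the same cluster as Ifit3 and Ifit3b: Ifit2 is the measured gene just before Ifit3, Ifit1bl1 lies between Ifit3 and Ifit3b, and Ifit1bl2 and Ifit1 follow. Of the OAS family, 11 genes besides Oasl2 did not vary, including Oas2 (5.83) and Oas3 (5.51), which encode enzymes making the RNase L activator. Oasl1 (5.46), the neighbour of Oasl2, was also among the 11 that did not vary. Of the IFITM family, 5 genes besides Ifitm3 did not, including its neighbours Ifitm1 (6.89), Ifitm2 (7.52) and Ifitm6 (5.76). Fbxo39 (5.71) and Slc13a5 (7.04), on either side of Xaf1, did not vary either. Of the 17 measured genes nearest to the members and not members themselves, 0 varied. Over all genes only 1.42% varied, and the members were chosen for their contrast, so nothing is read from these counts.

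Among the other interferon-stimulated genes, 2 of 47 besides Xaf1 varied, and both had all Old arrays above all Young arrays. Ifi27, which encodes a small hydrophobic protein, lay between 6.28 and 6.62 log2 on the Young arrays and between 6.65 and 6.75 on the Old, higher by 0.28 (SE 0.056). Its adjusted p was 0.159 with limma over all genes and 0.00354 over the varying genes. Over all genes it passed without Young 5 (0.0111) and without Young 3 and Young 5 (0.0192), but not without any other single array. It passed in 4 of 19 alternatives, these included, and the highest limma adjusted p was 0.601. Herc6, the mouse ligase that attaches ISG15 to proteins, lay between 6.81 and 7.07 on the Young arrays and between 7.07 and 7.19 on the Old. It was higher by 0.21 (SE 0.046), with an adjusted p of 0.221 with limma over all genes and 0.00727 over the varying genes. Herc6 passed in 2 of 19 alternatives, quantile normalization and the varying genes only, and its highest limma adjusted p was 0.574. The remaining 45, among them Isg15 (6.03), Rsad2 (6.07), Bst2 (6.83) and Cxcl10 (6.10), and all 14 interferon-induced GTPases, among them Mx1 (5.52) and Irgm1 (6.70), did not vary.

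Antigen-processing genes that interferon raises supplied the 3 genes that rose over all genes. B2m encodes the light chain shared by MHC class I molecules. It lay between 9.85 and 10.2 log2 on the Young arrays and between 10.6 and 10.8 on the Old. Its difference was 0.66 (SE 0.060), with a limma adjusted p of 0.00252. H2-D1, a heavy chain of the same complex, lay between 7.04 and 7.15 on the Young arrays and between 7.49 and 7.65 on the Old, a difference of 0.46 (SE 0.032, limma adjusted p = 0.000495). H2-K1, another heavy chain, differed by 0.056 (SE 0.0058, limma adjusted p = 0.00395; 0.0547 without Young 3 and Young 5). The other 8 of the 11 measured genes in this list, among them the immunoproteasome subunit Psmb8 (6.55) and the peptide transporter Tap1 (6.70), did not vary.

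The promoter of B2m is shown beside those of the members because it too held GAAANNGAAA, once, as written. The run is chr2:122147528-122147577 on the plus strand, from RefSeq (GRCm38.p6), with the match in capitals.
B2m: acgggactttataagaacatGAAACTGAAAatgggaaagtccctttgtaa
H2-D1 and H2-K1 held AANNGAAA in their windows and Herc6 held neither form.

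**Figure D2:**
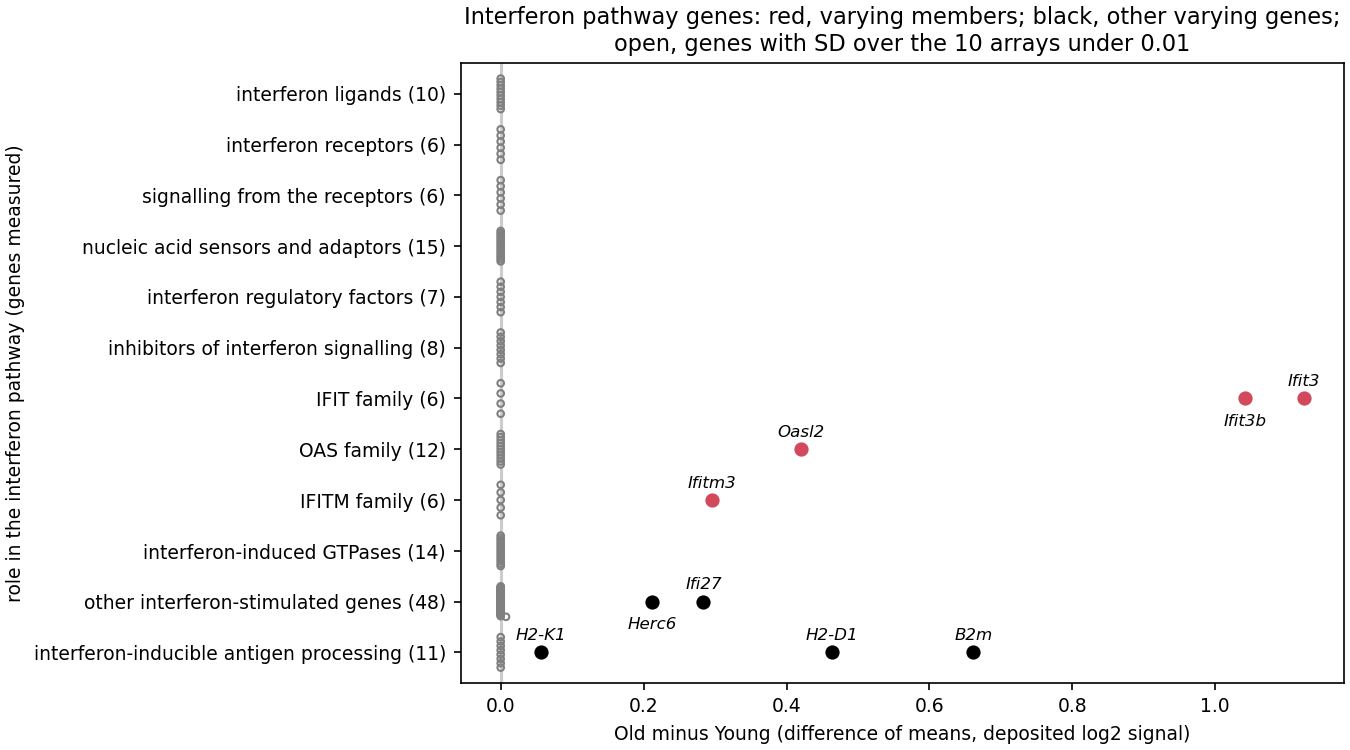
Difference of means, Old minus Young in deposited log2 signal (x axis), of 149 measured interferon pathway genes by role (y axis, genes measured in brackets); red points are the varying members, black points other varying genes and open points genes that did not vary, Xaf1 among them. The varying genes lie in 5 of the 12 roles, from H2-K1 at 0.056 to Ifit3 at 1.12, and all ligands, receptors and signalling genes sit at 0, where the values cannot size a change.

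Markers of cells that could carry these transcripts were read from the same arrays. In whole tissue, more cells of a type and more RNA per cell cannot be told apart. Of 11 measured microglial markers 2 varied, C1qa and C1qb, which were higher in Old by 0.34 (SE 0.056) and 0.29 (SE 0.048). With limma over all genes their adjusted p was 0.0719 each, and over the varying genes 0.00146 and 0.00148. C1qc passed over all genes with a difference of only 0.0059 log2 and did not vary. The summed signal of the 11 markers, on the linear scale, lay between 2064 and 2104 on the Young arrays and between 2144 and 2253 on the Old. Since 9 of the 11 did not vary, differences in this sum come from C1qa and C1qb and add nothing to them. The defining microglial genes P2ry12, Tmem119, Cx3cr1 and Csf1r were not among the varying genes and say nothing on cell number here. Of the 7 astrocyte markers 4 varied and Gfap rose, by 0.44 (SE 0.065, limma adjusted p = 0.0396 over all genes). Of the other 3, Gja1 was at -0.14, Slc1a2 at 0.0040 and Aldoc at 0.061, and none passed over all genes; over the varying genes Gja1, a gap junction gene, passed as lower (limma adjusted p = 0.0353). The summed astrocyte signal lay between 7800 and 8000 on the Young arrays and between 7943 and 8225 on the Old. Its differences likewise come only from the 4 markers that varied. Mbp and Mobp, of 5 oligodendrocyte markers, and Ly6c1, of 6 endothelial markers, varied without passing in either fit. So did 6 of 7 choroid plexus markers (Ttr, Kl, Folr1, Kcne2, Otx2 and Clic6), whose summed signal was 741 to 6796 on the Young arrays, highest on Young 5, and 725 to 830 on the Old. None of 5 T cell, 6 NK cell, 5 plasmacytoid dendritic cell, 4 B cell and 6 border macrophage markers varied. The part of any of these cells in the members' differences was not tested.

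A measure that the choice of members did not use is how they varied among arrays of 1 age. For each varying member the age mean was subtracted, and pairs of members were compared over the 10 arrays, with a 2-sided exact permutation of arrays within each age (14400 arrangements) and Benjamini-Hochberg adjustment over the 6 pairs. Ifit3 and Ifit3b deviated together, with a Pearson r of 0.82 (exact permutation p = 0.00972, adjusted 0.0583) and a Spearman rho of 0.87 (p = 0.00472, adjusted 0.0283, both by exact permutation). On 9 of 10 arrays they lay on the same side of their age means. Without Old 1 and Old 2, the arrays farthest from the median of Ifit3, r was 0.90. The adjusted exact permutation p of the Pearson r was 0.0438 without Young 2 and 0.0104 without Old 2 or Old 5. Without any other single array it missed the threshold, from 0.0875 without Young 5 to 0.421 without Young 3. With both Young 3 and Young 5 left out it was 0.425. The Pearson r thus missed the threshold after adjustment and the rank correlation passed it, and signal that the probe sets of these close paralogues may share was not separated from expression.

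The other 5 pairs did not pass over all 10 arrays. Their r ran from -0.070 for Ifit3b and Ifitm3 (exact permutation p = 0.842, adjusted 0.842; rho -0.0061) to 0.53 for Oasl2 and Ifitm3 (exact permutation p = 0.153, adjusted 0.459; rho 0.36). Ifit3 and Oasl2 had an r of 0.35 (exact permutation p = 0.317, adjusted 0.577; rho 0.42), and Ifit3 and Ifitm3 one of 0.26 (exact permutation p = 0.471, adjusted 0.577; rho 0.067). Ifit3b and Oasl2 had an r of 0.25 (exact permutation p = 0.481, adjusted 0.577; rho 0.35). Some of these changed when arrays were left out. The r of Ifit3 and Oasl2 was 0.82 without Young 2, where it passed (exact permutation p = 0.00799, adjusted 0.0438), and that of Oasl2 and Ifitm3 was -0.22 without Young 5 and Old 2. A p above the threshold with 10 arrays does not show that the members vary apart.

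Old 2 lay above its age mean in all 4 varying members, as did Young 5. Old 1 and Old 3 lay below it in all 4. Young 2 was high for Ifit3, by 0.16, and low for Oasl2, by -0.19, while Old 5 was high for Ifit3b, by 0.17, and low for Ifitm3, by -0.11.

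**Figure D3:**
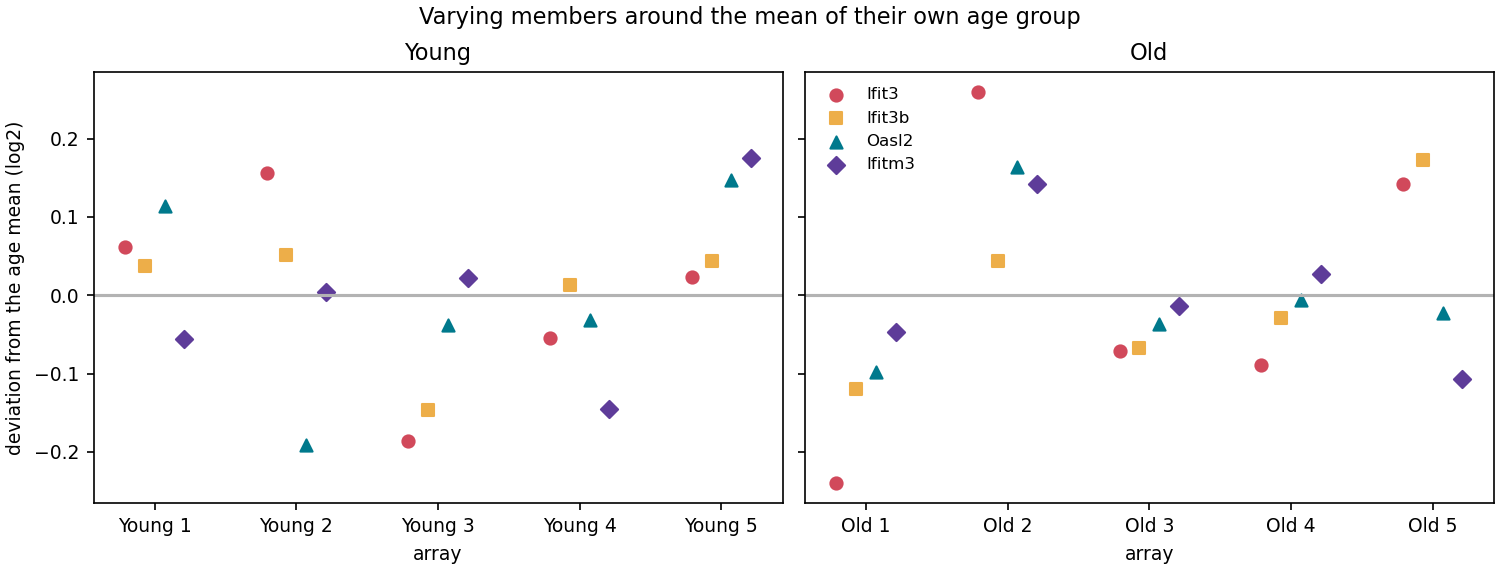
Deviation of each varying member from the mean of its own age group (y axis, log2) on each of 5 Young and 5 Old arrays (x axis); symbols mark Ifit3, Ifit3b, Oasl2 and Ifitm3. Ifit3 and Ifit3b lie on the same side of 0 on 9 of 10 arrays, and all 4 genes are above 0 on Young 5 and Old 2.

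The genes most like each member were taken from the other 275 varying genes by the same within-age Pearson r over 10 arrays, as a description without a test. Being the highest of 275 values, these are large by selection. Differences among arrays in RNA quality or dissection could enter all of them, which was not tested. After each other, Ifit3 and Ifit3b were both closest to Pcdhb9, a beta protocadherin of neuronal adhesion, with r of 0.78 and 0.77. Ifit3 was next closest to Vwf, the von Willebrand factor of endothelium (0.74), the ferritin heavy chain gene Fth1 (0.64) and the methyltransferase gene Smyd3 (0.64). Ifit3b was next closest to Prkacb, a catalytic subunit of protein kinase A (0.77), the secretory gene Sytl4 (0.77) and Smyd3 (0.73).

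Ifitm3 was closest to other genes. Lamp2, a membrane protein of lysosomes, had an r of 0.88, H2-D1 0.86, Pon3 0.75, the channel gene Trpm3 0.73 and B2m 0.72. Both H2-D1 and B2m are antigen-presentation genes that rose with age. Ifit3 had r of 0.17 with H2-D1 and -0.18 with B2m, and Ifit3b had -0.28 and -0.37. Differences between these r values were not tested. Trpm3 is expressed in choroid plexus, and the r of Ifitm3 with Ttr was 0.60; the part of Young 5 in these values was not tested.

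Oasl2 was closest to Hspa5 (r of 0.76) and Xbp1 (0.76), a chaperone and a transcription factor of the unfolded protein response, followed by Fezf1 (0.70), Ntsr2 (0.67) and Cdkn1a (0.66). Of these, Ntsr2 fell with age by 0.30 on the log2 scale (limma adjusted p = 0.00241 over all genes), opposite to Oasl2. The median r of Oasl2 with the 275 genes was 0.18, against 0.021 for Ifit3, -0.022 for Ifit3b and 0.075 for Ifitm3.

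**Figure D4:**
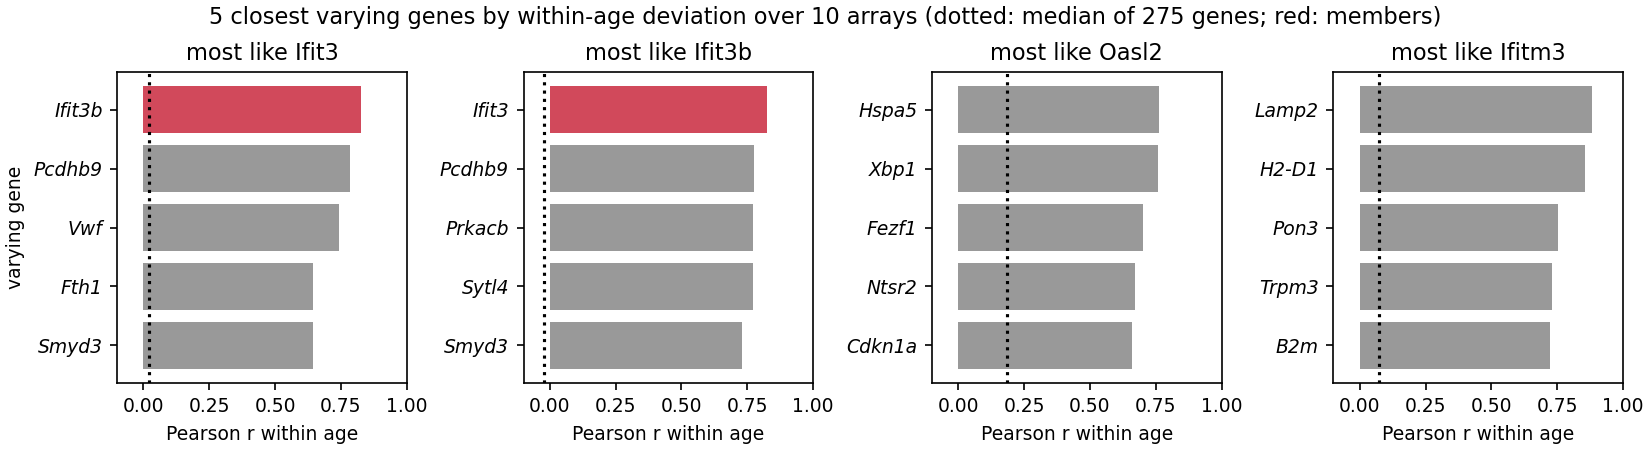
The 5 varying genes (y axis) with the highest within-age Pearson r (x axis, over 10 arrays) to each varying member; red bars are members, and the dotted line is the median over the 275 genes compared. Ifit3 and Ifit3b share Pcdhb9 and Smyd3 in their lists, Ifitm3 has H2-D1 (0.86) and B2m (0.72), and neither Ifitm3 nor Oasl2 shares a gene with another list.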

How the data were processed

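Messenger RNA was measured on 1 array per sample, 10 in all. The log2 values are used as deposited, 1 per probe set and array; how the authors corrected, scaled and summarised them is not stated in the labels. The base was read from the range of 5.0 to 12.97. Detection calls were not used, and precision is limited by the number of arrays. The platform's annotation paired 19572 of 22206 probe sets with 1 gene symbol, 0 with several, and 2634 are unnamed here; all 19572 identifiers matched RefSeq (GRCm38.p6). Where a gene had several probe sets, that with the highest mean was kept.

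Old and Young were compared over all genes with limma 3.58.1 in R 4.3.3 (lmFit, eBayes, 2-sided). A run on simulated data gave all genes the same noise, unlike these values, and does not show how the fit behaves here. The SE of the members is from the fit to the deposited values. Its prior SD was 7.0e-06 log2, set by the genes that do not vary. Members and lists were chosen with earlier results of these data known. Named genes are the members, pathway genes that vary or pass, measured relatives and neighbours of the members, the 5 closest genes to each, and varying cell type markers. Alternatives covered quantile and median scaling, a filter on dim genes, other priors and thresholds, a replicate block and left-out arrays. The main fit did not pair arrays by replicate number. The deviations of same-numbered arrays over varying genes correlated from -0.22 to 0.28, and a batch shared by number was not tested.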

Additional observations from a re-analysis of the deposited data

Results flagged for a closer look

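In 18 groups of 5 arrays, for the 4 varying members and the 5 other varying pathway genes, the lowest and highest arrays were set against their nearest neighbour, and 1 group had an array more than 0.71 of the range away (the critical value of Dixon's criterion). Chance alone would also give such a gap in the occasional group. For Ifit3b, Young 3 had 7.01 log2, below the next Young array at 7.17. Young 3 is also the array with the highest Mup2 and Alb. Without Young 3 the difference of Ifit3b was 1.00.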

How the results depend on the processing

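The differences of Ifit3, Ifit3b, Oasl2 and Ifitm3 moved by less than 1 SD of their arrays under each of the 16 alternatives run for them, with ranges of 1.03 to 1.18, 0.97 to 1.07, 0.37 to 0.46 and 0.26 to 0.36. For most of these the limit of 1 SD could not be passed. Leaving out 1 or 2 of 5 arrays cannot move a group mean that far. The replicate block and the mean over probe sets return the same difference by design. Nothing is therefore read from that limit. Among the other pathway genes 3 were higher and 0 lower over all genes; quantile normalization gave 6 and 38, the varying genes only gave 5 higher, a fold of at least 1.5 gave 1, and fits without 1 array called 3 to 4. Over all genes 37 were higher and 6 lower. This became 154 and 6464 with quantile normalization, 68 and 31 with the varying genes only, 22 and 2 without Young 3 and Young 5, 21 and 2 at an adjusted p under 0.01, 10 and 0 with a fold of at least 1.5, and 10 lower with a trended robust prior; fits without 1 array called 25 to 37 and 4 to 9. With the replicate block, 10 genes were higher and 1 lower, and 1 other pathway gene was higher. The limma adjusted p was then 0.158 for B2m and 0.0508 for H2-K1. Of 5 Young arrays, 1 correlated best with its own number, and a batch shared by number was not tested.

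For the within-age correlations, leaving out the 2 arrays farthest on the x axis gave 0.90 for Ifit3 and Ifit3b (adjusted exact permutation p = 0.0313), -0.13 for Ifit3 and Oasl2, -0.15 for Ifit3 and Ifitm3, 0.63 for Ifit3b and Ifitm3 (adjusted 0.0313), 0.53 for Ifit3b and Oasl2, and -0.22 for Oasl2 and Ifitm3. Spearman's rho for Ifit3 and Ifit3b was 0.87, past the threshold. With the replicate block r was -0.25 for Ifit3 and Ifitm3, -0.61 for Ifit3b and Ifitm3 and 0.075 for Ifit3b and Oasl2, none past the threshold. Leaving out single arrays gave 0.77 to 0.92 for Ifit3 and Ifit3b, 0.022 to 0.82 for Ifit3 and Oasl2, -0.097 to 0.45 for Ifit3 and Ifitm3, -0.25 to 0.31 for Ifit3b and Ifitm3, 0.11 to 0.50 for Ifit3b and Oasl2, and 0.32 to 0.70 for Oasl2 and Ifitm3. The causes were not tested. The number of arrays and their unknown background limit what a small r or a small difference can show.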
